A study of Mus musculus with 36 samples.

Results

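The hedgehog pathway was followed through 9 genes in neonatal mouse kidneys that carry mutations of both, 1 or neither of the mouse genes for recessive and dominant polycystic kidney disease. The genes are the ligands Ihh and Shh, the receptor Ptch1, the signal transducer Smo, the ligand-binding antagonist Hhip, the intracellular inhibitor Sufu and the transcription factors Gli1, Gli2 and Gli3. They were chosen by symbol as members of the pathway and not by a cut on their measured values, although earlier results of these data were known. All 9 were found among the 18049 genes of the count table. RNA of whole kidneys from C57BL/6 mice was sequenced at postnatal day 0, 3 and 12 (P0, P3 and P12). Digenic mice were Pkhd1-/- and Pkd1-RC/RC together, Pkd1-RC/RC mice carried 2 copies of the RC allele, a hypomorphic missense allele of Pkd1, Pkhd1-/- mice lacked functional Pkhd1, and WT mice carried neither mutation. Each of the 12 groups of genotype and age held 3 libraries. The mutations are germline and the samples are whole organs, so that fewer cells of a type and less RNA per cell cannot be told apart. The label of each library gives a different MFC number, taken here as the number of a mouse. The p-values measure the spread between these libraries.

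Hedgehog ligands are secreted proteins that bind Ptch1 on receiving cells. Ptch1 without ligand holds Smo inactive, and the Gli proteins are then held by Sufu or processed into repressors at the primary cilium. Ligand binding frees Smo and turns Gli2 and Gli3 into activators, and the cell then transcribes Gli1, Ptch1 and Hhip, which are the usual readouts of the pathway. In the mouse kidney Shh is made by the ureteric and collecting duct epithelium and Ihh by proximal tubule cells, while Gli1 marks stromal cells around vessels and tubules.

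Library totals ran from 51411240 to 80789299 counts. The kidney origin was plain from proximal tubule markers, with a summed level of at least 2213 CPM (counts scaled by library size to a common total) over 8 genes in every library. Pkhd1 stood at 5.90 to 32.8 CPM in the 18 libraries of digenic and Pkhd1-/- kidneys and at 61.6 to 249 CPM in the 18 others. Markers of the adrenal cortex summed to 79.4 to 525 CPM in 9 libraries and to 12.8 to 39.2 CPM in the other 27. The 9 are WT replicate 1, Pkd1-RC/RC replicate 2 and Pkhd1-/- replicate 1 of P0, Digenic replicate 3, Pkd1-RC/RC replicate 1 and Pkhd1-/- replicate 1 of P3, and Digenic replicates 2 and 3 and Pkhd1-/- replicate 3 of P12. In 2 libraries of P12 the column header goes against the label, which was followed: the header of Digenic replicate 1 gives P3, and that of Pkd1-RC/RC replicate 2 gives Pkhd1. Hsd11b2, a collecting duct marker, had 448 CPM in Digenic replicate 1. It had 396 and 405 CPM in the other digenic libraries of P12 and 86.9 to 101 CPM in those of P3. At P12 Pkhd1 had 216 to 233 CPM in Pkd1-RC/RC and 19.1 to 20.3 CPM in Pkhd1-/- libraries. Counts of Xist and of Y-linked genes went against the sex in the header of 3 libraries, and by these counts all 3 digenic libraries of P3 were female, against 1 of 3 Pkd1-RC/RC, 0 of 3 Pkhd1-/- and 1 of 3 WT libraries of that age.

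The promoters of Ihh, the member that rose in digenic kidneys at both later ages, and of Hhip, a target with higher levels in the same P3 libraries, are shown for their base content. They are the 250 bases before the gene start in RefSeq on GRCm38.p6, 5′ to 3′ on the strand of the gene, with CG dinucleotides in capitals. The window of Ihh is chr1:74951673-74951922 and that of Hhip is chr8:80058009-80058258, both on the reverse strand.
Ihh: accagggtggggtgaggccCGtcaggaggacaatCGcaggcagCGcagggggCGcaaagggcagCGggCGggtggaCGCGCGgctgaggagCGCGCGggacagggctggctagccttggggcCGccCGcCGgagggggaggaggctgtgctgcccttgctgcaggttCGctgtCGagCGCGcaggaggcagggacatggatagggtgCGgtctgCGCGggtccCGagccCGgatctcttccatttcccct
Hhip: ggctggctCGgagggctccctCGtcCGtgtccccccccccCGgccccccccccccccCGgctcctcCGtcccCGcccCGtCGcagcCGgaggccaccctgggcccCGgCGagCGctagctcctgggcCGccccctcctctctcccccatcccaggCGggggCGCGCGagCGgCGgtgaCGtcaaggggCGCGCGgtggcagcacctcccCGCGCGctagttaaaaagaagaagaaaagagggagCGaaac
Ihh held 24 CG dinucleotides and Hhip held 28, against a median of 6 over the 32851 promoters of the table, of which 88.0% held fewer than Ihh and 92.4% fewer than Hhip. The 7 members with an entry in the table, Ihh, Ptch1, Smo, Hhip, Sufu, Gli2 and Gli3, held from 8 (Sufu) to 41 (Ptch1). By the positions of GENCODE M21 on mm10, the windows of Ptch1 (chr13:63565736-63565985) and Gli3 (chr13:15463473-15463722) lie inside the gene. The bases before the outermost start of these genes were not searched. The binding motif of the Gli factors, GACCACCCA, searched on both strands from 250 bases before to 50 bases after the start, was in none of these 7 windows, also with 1 mismatch allowed. Over all promoters 83 (0.253%) held the exact motif and 2214 (6.74%) held it with at most 1 mismatch.

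In WT kidneys 7 of the 9 genes were lower at P12 than at birth. Per kilobase of gene length, Smo stood far above the rest, with 51.8 ± 3.59 at P0, 54.6 ± 2.89 at P3 and 43.4 ± 0.626 at P12 CPM per kilobase (mean ± SD, n = 3). Ihh had 14.5 ± 1.53 at P0, 4.53 ± 0.434 at P3 and 6.80 ± 0.696 at P12 CPM per kilobase. Ptch1, close to Ihh at P12, had 11.9 ± 1.02 at P0, 6.52 ± 1.28 at P3 and 7.09 ± 1.31 at P12, and Sufu had 11.9 ± 1.13 at P0, 11.7 ± 1.73 at P3 and 13.6 ± 0.878 at P12 CPM per kilobase. Gli1 had 6.61 ± 1.19 at P0, 2.85 ± 0.302 at P3 and 2.27 ± 0.498 at P12 CPM per kilobase. The lowest level per length at P0 and P3 was that of Hhip, with 1.64 ± 0.236 at P0, 1.07 ± 0.286 at P3 and 1.28 ± 0.387 at P12 CPM per kilobase, and at P12 it was that of Shh, with 1.90 ± 1.05 at P0, 1.26 ± 0.556 at P3 and 0.856 ± 0.184 at P12 CPM per kilobase. Gli2 and Gli3 lay between Hhip and Gli1 at P0. At P12 Gli3 had 0.887 ± 0.142, Gli2 0.946 ± 0.107 and Shh 0.856 ± 0.184 CPM per kilobase, values that do not differ beyond their spread.

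**Figure D1:**
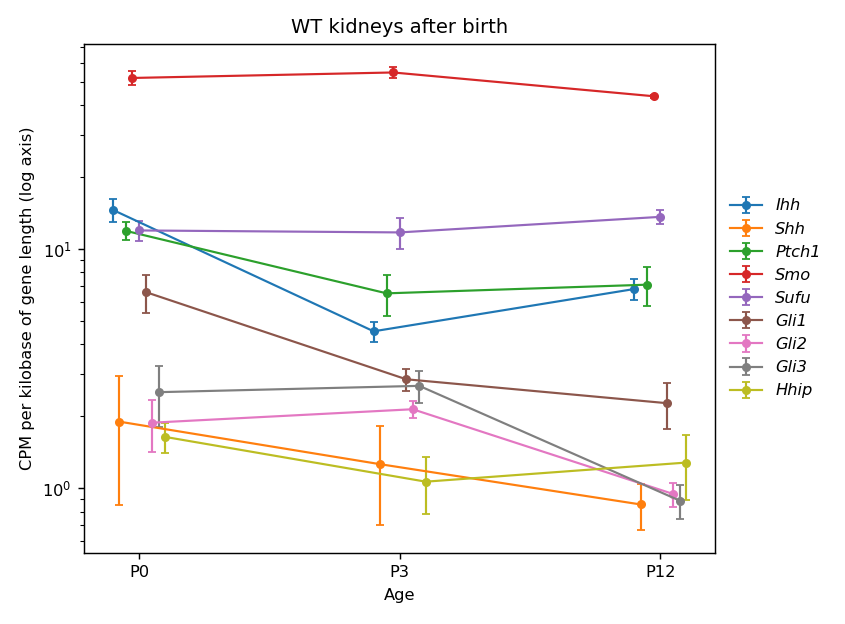
Level of each of the 9 genes in WT kidneys at P0, P3 and P12 in CPM per kilobase of gene length on a log axis; points are means and bars are SD over 3 libraries. Ihh, Ptch1 and Gli1 are lower at P3 than at P0, Gli2 and Gli3 are lower at P12 than at P3, and Smo and Sufu move least.

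The WT course was also tested between neighbouring ages. Between birth and P3, 3 members fell (24.7% of all tested genes were called in this comparison): Ihh, which had 13.1, 12.9 and 15.3 CPM at P3 and 40.3, 49.5 and 43.3 CPM at P0, and the targets Gli1 and Ptch1. No library of either age overlapped for Ihh. The log2 fold changes were -1.68 ± 0.25 (± SE) for Ihh (adjusted p = 6.27e-05), -1.21 ± 0.24 for Gli1 (adjusted p = 0.000792) and -0.87 ± 0.18 for Ptch1 (adjusted p = 0.00119). The other readout, Hhip, had a log2 fold change of -0.62 ± 0.27 (adjusted p = 0.0972), and its libraries did not overlap either. Between P3 and P12, 3 other members fell (35.5% called): Gli3 by 1.59 ± 0.20 (adjusted p = 3.65e-07), Gli2 by 1.18 ± 0.23 (adjusted p = 0.000208) and Smo by 0.33 ± 0.10 (adjusted p = 0.01) on the log2 scale. Ihh was again higher at P12, with a log2 fold change over P3 of 0.59 ± 0.25 that did not pass (adjusted p = 0.0639), although every P12 library stood above every P3 library. Shh passed in neither interval, with log2 fold changes of -0.59 ± 0.37 for P3 over P0 (adjusted p = 0.242) and -0.56 ± 0.37 for P12 over P3 (adjusted p = 0.25).

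Over the whole span from P0 to P12, 7 members fell and none rose, while 49.8% of all tested genes were called. The median log2 fold change of the 9 members was -0.99, against 0.02 over all tested genes. Gli1 fell by 1.54 ± 0.24 (adjusted p = 5.55e-06), Gli3 by 1.5 ± 0.20 (adjusted p = 4.18e-07), Shh by 1.15 ± 0.37 (adjusted p = 0.011), Ihh by 1.10 ± 0.25 (adjusted p = 0.000523) and Gli2 by 0.99 ± 0.23 (adjusted p = 0.000748) on the log2 scale. Ptch1 fell by 0.75 ± 0.18 (adjusted p = 0.000992) and Smo by 0.25 ± 0.10 (adjusted p = 0.0343). Sufu and Hhip did not pass, with log2 fold changes of 0.19 ± 0.11 and -0.35 ± 0.27. The call of Shh was lost without P0 WT replicate 3, which had 8.29 CPM (log2 fold change -0.62, adjusted p = 0.19), and without P12 WT replicate 1 (-1.03, adjusted p = 0.0502). That of Smo was lost without P0 WT replicate 1 or 3 or P12 WT replicate 2 or 3, with log2 fold changes from -0.26 to -0.20. Summed stroma markers of the same WT kidneys were 4731 to 5073 CPM at P12 and 4123 to 6108 CPM at P0. Col1a1 and Col3a1 made up most of this sum, and single markers differed. Foxd1 had 22.5, 12.0 and 19.6 CPM at P0 and 4.67, 5.04 and 5.07 CPM at P12. Meis1 had 49.0, 31.5 and 41.3 CPM at P0 and 19.1, 19.8 and 19.7 CPM at P12. Dcn was higher at P12, with 242, 273 and 252 CPM against 224, 136 and 139 CPM, and the other stroma markers overlapped. The part of cell composition in the fall of the Gli genes was not tested.

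Ihh was the member that separated digenic from WT kidneys at both later ages. At birth no member was called (0.671% of all tested genes were), and 1 member, Shh, had an unadjusted p under 0.05; DESeq2 called none of them either. At P3 Ihh and Gli1 rose (2.7% of all tested genes called), and at P12 Ihh alone did (23% called). The median log2 fold change of the 9 members in digenic kidneys came to 0.09 at P0, to 0.28 at P3 and to 0.27 at P12, against 0.00, -0.01 and -0.01 over all tested genes. At P12 the share of members called, 1 of 9, lay below that of all genes.

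**Figure D2:**
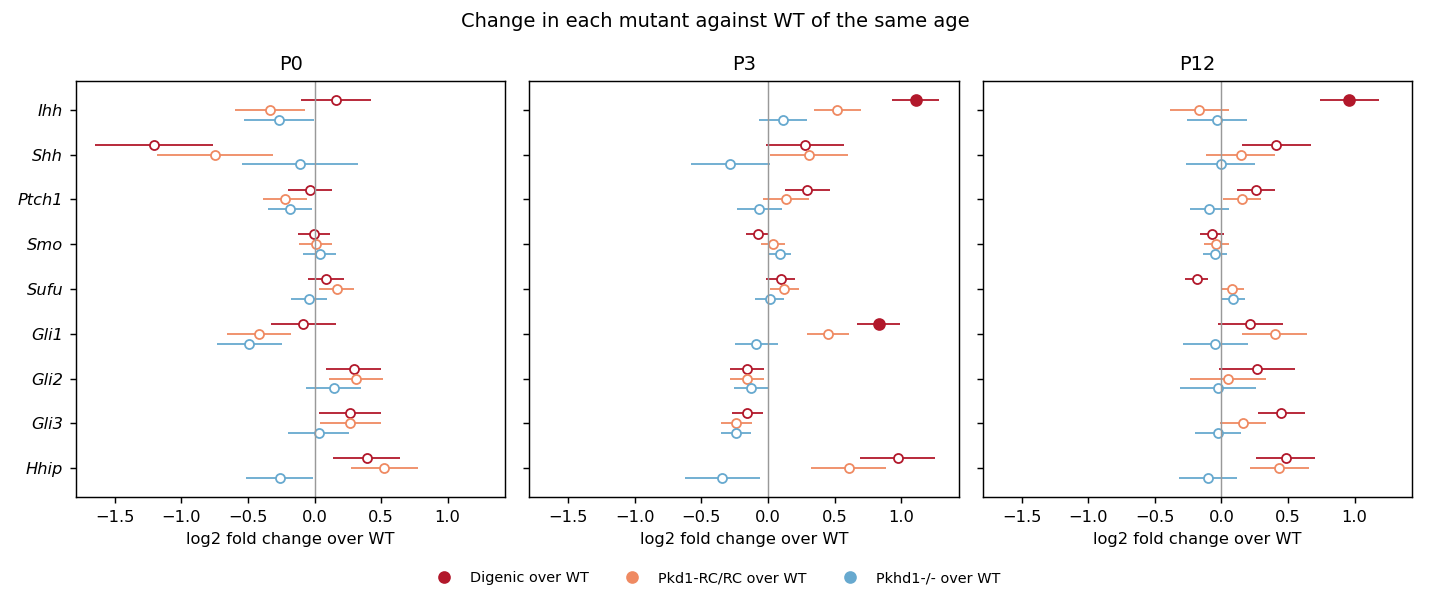
Log2 fold change over WT of the same age for each of the 9 genes in Digenic, Pkd1-RC/RC and Pkhd1-/- kidneys; bars are SE from the fit, filled points passed an adjusted p of 0.05 and open points did not. The filled points are Ihh and Gli1 at P3 and Ihh at P12, all in digenic kidneys.

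Ihh (chr1:74945315-74951672, reverse strand), the ligand of the proximal tubule, rose in digenic over WT kidneys at P3 and P12, and was not called at birth. Positions here and below are those of GENCODE M21 on mm10. At P0 it had 41.4, 43.3 and 63.4 CPM in digenic, 24.7, 26.5 and 54.7 in Pkd1-RC/RC, 32.2, 40.2 and 38.6 in Pkhd1-/- and 40.3, 49.5 and 43.3 CPM in WT libraries. Digenic and Pkd1-RC/RC libraries overlapped WT, Pkhd1-/- libraries lay just below WT, and the log2 fold change of digenic over WT was 0.16 ± 0.26 (adjusted p = 0.792). At P3 it had 23.7, 41.1 and 25.2 CPM in digenic libraries. In the other P3 libraries it had 20.4, 20.1 and 19.0 in Pkd1-RC/RC, 14.1, 14.3 and 16.3 in Pkhd1-/- and 13.1, 12.9 and 15.3 CPM in WT. Thus every digenic library of P3 stood above every library of the other genotypes, and the Pkd1-RC/RC libraries stood between digenic and WT. The digenic level was 2.16-fold that of WT, a log2 fold change of 1.11 ± 0.18 (adjusted p = 0.00757). It was also higher than in Pkhd1-/- kidneys, by a log2 fold change of 1.0 ± 0.18 (adjusted p = 0.00973). Over Pkd1-RC/RC the value was 0.59 ± 0.18 and did not pass (adjusted p = 0.179).

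At P12 Ihh had 55.5, 25.9 and 39.6 CPM in digenic libraries. The remaining P12 libraries had 17.0, 15.7 and 22.5 in Pkd1-RC/RC, 19.5, 21.6 and 19.6 in Pkhd1-/- and 21.7, 22.2 and 18.3 CPM in WT. Digenic libraries were again all higher, with a spread among them larger than that of the other groups, while the single mutants overlapped WT. The log2 fold change was 0.96 ± 0.22 over WT (adjusted p = 0.00993), 1.12 ± 0.22 over Pkd1-RC/RC (adjusted p = 0.00595) and 0.99 ± 0.22 over Pkhd1-/- (adjusted p = 0.00665). Without Digenic replicate 1, the library whose header gives P3 and the highest of the group, the log2 fold change over WT was 0.66 (adjusted p = 0.0241). The interaction, which is the digenic effect beyond the sum of both single-mutant effects on the log2 scale, was 1.16 ± 0.31 (adjusted p = 0.0435). The call of the interaction was lost when any 1 of 9 of the 12 libraries of P12 was left out, all but Pkd1-RC/RC replicate 3 and Digenic replicates 1 and 2, with values from 0.86 to 1.40 over the 12. Against Pkd1-RC/RC without replicate 2, whose header gives Pkhd1, the log2 fold change of digenic kidneys was 1.02 (adjusted p = 0.0225).

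In the order of the means over the 12 groups, the 4 groups of P0, digenic P12 and digenic P3 came first, with means of Ihh from 49.4 ± 12.2 CPM (digenic P0) down to 30.0 ± 9.64 CPM (digenic P3), and neighbours in that order overlapped. WT, Pkhd1-/- and Pkd1-RC/RC of P12 and Pkd1-RC/RC of P3 followed, with means from 20.7 ± 2.12 down to 18.4 ± 3.57 CPM and overlapping libraries. Pkhd1-/- and WT of P3 came last, with 14.9 ± 1.24 and 13.8 ± 1.32 CPM. Their libraries overlapped each other and, for Pkhd1-/-, those of Pkd1-RC/RC of P12.

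Other markers moved with Ihh. In digenic kidneys of P12 proximal tubule markers summed to 3140.4 to 3691 CPM, against 5569 to 6719.5 CPM in WT. Collecting duct markers summed to 3508 to 3888 against 1218 to 1622 CPM. Among them Aqp2 had 1397, 2008 and 1872 against 266, 369 and 241 CPM. Calb1 overlapped, with 700, 271 and 581 against 272, 394 and 233 CPM, and the other collecting duct markers did not. Macrophage markers summed to 292 to 781 against 123 to 147 CPM, and tubular injury markers to 5426, 2153 and 2854 against 1578, 2259.9 and 1788 CPM. Interferon response genes summed to 686, 126 and 216 against 82.5 to 122.7 CPM, and smooth muscle and myofibroblast markers to 845 to 1296 against 526 to 680.2 CPM. The digenic library with most Ihh at P12, replicate 1, had the highest sums of injury markers and interferon response genes of its group, the lowest of collecting duct and proximal tubule markers, and a sum of macrophage markers (706 CPM) between those of the other digenic libraries. At P3 the one with most Ihh, replicate 2, had the highest sums of collecting duct markers (1363, 2248 and 1326 CPM in the digenic libraries, 1109.6 to 1349 in WT), of macrophage markers (219.8, 293 and 184, against 108 to 141) and of interferon response genes (289.9, 759 and 173, against 77.0 to 86.0). Aqp2, 1 of the collecting duct markers, had 487, 1101 and 506 CPM in these digenic libraries and 228, 390 and 543 CPM in WT. Proximal tubule markers of P3 overlapped, with sums of 2603, 2523 and 3150 CPM in digenic and 3024, 2630 and 3460 CPM in WT libraries. The part of all these markers in the level of Ihh was not tested.

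**Figure D3:**
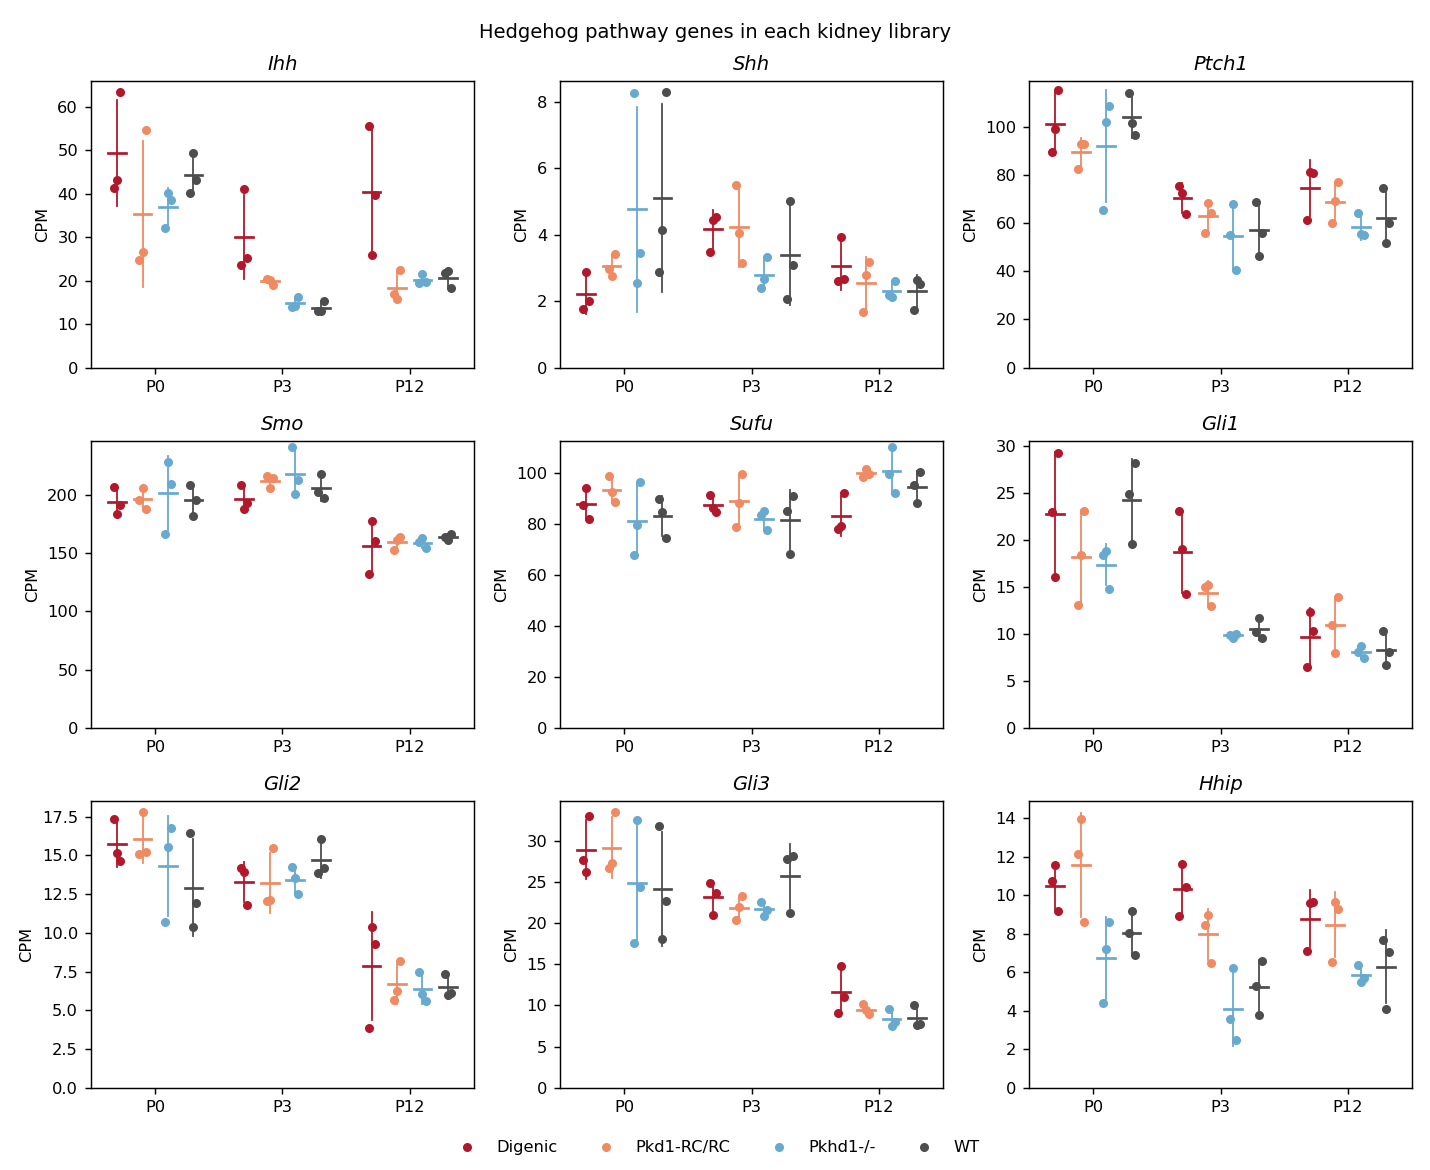
CPM of each of the 9 genes in each library, by age and genotype; points are libraries, horizontal lines are means and vertical lines are SD over 3 libraries. The 3 digenic libraries stand above all WT libraries for Ihh at P3 and P12 and for Gli1 and Hhip at P3.

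Shh (chr5:28456815-28467256, reverse strand), the ligand of the collecting duct, was low throughout and was not called between genotypes at any age. At P0 it had 1.75, 2.88 and 2.0 CPM in digenic libraries and 2.89, 4.15 and 8.29 CPM in WT libraries. All 3 digenic libraries lay below the WT libraries, the highest with 2.88 CPM against 2.89 CPM in the lowest WT library, with a log2 fold change of -1.2 ± 0.44 that did not pass (adjusted p = 0.218). In 1 fit of all 36 libraries the value was -1.21 and passed (adjusted p = 0.0386). Single-mutant libraries of P0 had 2.98, 2.75 and 3.43 CPM in Pkd1-RC/RC and 8.27, 2.55 and 3.45 CPM in Pkhd1-/-. At P3 it had 3.49, 4.43 and 4.54 CPM in digenic and 2.08, 5.02 and 3.08 CPM in WT libraries, and at P12 2.62, 3.93 and 2.67 CPM in digenic and 1.74, 2.65 and 2.53 CPM in WT libraries, overlapping at both ages. Collecting duct markers summed to 2004, 2592 and 1998 CPM in digenic and 1357, 1681 and 1450 CPM in WT libraries of P0. Among them Aqp2 and Krt18 were higher in all digenic than in all WT libraries, and the others overlapped. Urothelium markers, which belong to another source of Shh, summed to 74.5 to 89.6 CPM in digenic and 111 to 149 CPM in WT libraries of P0. Of these markers Krt20 was the higher in digenic libraries, with 13.2, 26.3 and 17.9 CPM against 12.6, 4.63 and 3.57 CPM in WT. The sums were 88.7, 112 and 90.9 CPM in Pkd1-RC/RC and 134, 214 and 75.3 CPM in Pkhd1-/- libraries of P0. The Pkhd1-/- library with the highest sum had the least Shh of its group. Of the P0 libraries with adrenal transcripts, Pkhd1-/- replicate 1 had 8.27 CPM of Shh, the most of its group. Pkd1-RC/RC replicate 2 (2.75 CPM) and WT replicate 1 (2.89 CPM) had the least of theirs. At P3 Pkd1-RC/RC replicate 1 and Digenic replicate 3 had the most, and Pkhd1-/- replicate 1 the least. At P12 Digenic replicate 2 and Pkhd1-/- replicate 3 had the most, and Digenic replicate 3 did not. The parts of collecting duct, urothelium and adrenal tissue in the values were not tested.

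The change of the digenic effect with age was tested in 1 fit of all libraries. From P0 to P12 (8.79% of all genes called) Shh was the member that passed, with a difference of 1.62 ± 0.52 on the log2 scale (adjusted p = 0.0491). The call was lost when any 1 of 10 of the 12 digenic and WT libraries of those ages was left out, or the adrenal libraries together, with values from 1.09 (without P0 WT replicate 3) to 1.90. No member passed from P0 to P3 (0.693% called) or from P3 to P12 (2.33% called); 3 and 1 members had an unadjusted p under 0.05 there, and DESeq2 called none. For Ihh the digenic effect was larger by 0.96 ± 0.35 at P3 than at P0 (adjusted p = 0.258), so that a difference between ages was not shown.

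Ptch1 (chr13:63508328-63573598, reverse strand), the receptor and a target of the pathway, had 75.4, 72.6 and 63.5 CPM in digenic libraries of P3 and 68.8, 46.4 and 55.9 CPM in WT libraries of P3. The groups overlapped, and the log2 fold change was 0.30 ± 0.17 (adjusted p = 0.421). At P12 it was 0.26 ± 0.14 (adjusted p = 0.215) and at P0 -0.03 ± 0.17. In the single mutants Ptch1 stayed within -0.22 and 0.15 on the log2 scale, with no call.

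Hhip (chr8:79965851-80058006, reverse strand), a membrane protein that binds hedgehog ligands and is itself a target, had 8.93, 11.6 and 10.4 CPM in digenic libraries of P3. The P3 libraries of Pkd1-RC/RC had 8.45, 8.99 and 6.45, those of Pkhd1-/- 3.56, 6.21 and 2.49 and those of WT 5.27, 3.79 and 6.59 CPM. Every digenic library stood above every Pkhd1-/- and WT library, while Pkd1-RC/RC overlapped both digenic and WT. Over Pkhd1-/- Hhip rose, with a log2 fold change of 1.32 ± 0.28 (adjusted p = 0.0242), a call that was lost without Pkhd1-/- replicate 1 or 3 or Digenic replicate 2, with log2 fold changes from 1.07 to 1.23. Over WT the log2 fold change was 0.97 ± 0.28 and did not pass (adjusted p = 0.0925), although DESeq2 gave it an adjusted p of 0.0138. At P0 Hhip had 10.7, 11.6 and 9.19 CPM in digenic and 8.03, 9.18 and 6.87 CPM in WT libraries, a log2 fold change of 0.39 ± 0.25 (adjusted p = 0.459), and at P12 7.08, 9.61 and 9.65 CPM in digenic and 7.66, 4.11 and 7.04 CPM in WT libraries, a log2 fold change of 0.48 ± 0.22 (adjusted p = 0.134). Pkd1-RC/RC over WT had similar values, 0.52 ± 0.25 at P0 (adjusted p = 0.484) and 0.43 ± 0.22 at P12 (adjusted p = 0.694). Those of Pkhd1-/- over WT were -0.26 ± 0.25 and -0.10 ± 0.22. Digenic over Pkd1-RC/RC had -0.13 ± 0.25 at P0 and 0.05 ± 0.22 at P12.

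Smo (chr6:29735503-29761365, forward strand), the transmembrane protein that passes the signal on, had the smallest differences of the 9. Over the 15 comparisons between genotypes of the same age its log2 fold change stayed between -0.16 and 0.09, and none passed. In digenic libraries of P12 it had 132, 177 and 161 CPM, a wider range than the 164, 162 and 166 CPM of WT libraries. The low library was Digenic replicate 1, which also had the lowest sum of stroma markers of the P12 libraries (3030.3, 5956 and 4346 CPM in digenic, 4731 to 5073 in WT).

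Sufu (chr19:46396896-46488804, forward strand), which holds Gli proteins in the cytoplasm, was lower at P12 in digenic kidneys than in both single mutants. It had 78.0, 79.3 and 92.2 CPM in digenic libraries, 98.5, 101 and 99.6 in Pkd1-RC/RC, 99.5, 110.2 and 92.1 in Pkhd1-/- and 95.0, 88.2 and 100.3 CPM in WT libraries. Digenic libraries lay below all Pkd1-RC/RC libraries, and their highest overlapped Pkhd1-/- and WT. The log2 fold change was -0.27 ± 0.09 over Pkd1-RC/RC (adjusted p = 0.0435), -0.28 ± 0.09 over Pkhd1-/- (adjusted p = 0.0298) and -0.19 ± 0.09 over WT (adjusted p = 0.135). Both calls were lost in 1 fit of all 36 libraries and without Digenic replicate 1 or 2. That over Pkd1-RC/RC was also lost without any 1 of its replicates, and that over Pkhd1-/- without its replicate 1 or 2, with log2 fold changes over Pkd1-RC/RC from -0.35 to -0.22 and over Pkhd1-/- from -0.36 to -0.21 as single libraries were left out.

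Gli1 (chr10:127329882-127341974, reverse strand), the factor whose own transcription follows active signalling, was higher in digenic kidneys at P3. It had 23.0, 19.0 and 14.2 CPM in digenic libraries, 14.9, 15.2 and 12.9 in Pkd1-RC/RC, 9.87, 9.60 and 10.0 in Pkhd1-/- and 10.2, 11.7 and 9.50 CPM in WT libraries. All digenic and all Pkd1-RC/RC libraries stood above the WT and Pkhd1-/- libraries, and digenic and Pkd1-RC/RC libraries overlapped each other. The log2 fold change of digenic over WT was 0.83 ± 0.16 (1.78-fold, adjusted p = 0.0168), over Pkhd1-/- 0.92 ± 0.16 (adjusted p = 0.00871) and over Pkd1-RC/RC 0.38 ± 0.16 (adjusted p = 0.414). The call over WT was lost without Digenic replicate 1 (log2 fold change 0.67, adjusted p = 0.0576), Digenic replicate 2 (0.82, adjusted p = 0.0645), WT replicate 1 (0.81, adjusted p = 0.0709) or WT replicate 3 (0.76, adjusted p = 0.0579). Stroma markers, from cells in which Gli1 is usually found, summed to 3531 to 4064 CPM in digenic and 3742 to 5395 CPM in WT libraries of P3, and their part in the level of Gli1 was not tested.

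Sex and genotype were partly confounded at P3, where all digenic libraries were female. With sex in the fit the log2 fold change of digenic over WT was 1.02 for Ihh (adjusted p = 0.101) and 0.87 for Gli1 (adjusted p = 0.129), and neither passed. The only female WT library of that age, replicate 3, had 15.3 CPM of Ihh and 9.50 CPM of Gli1. The only female Pkd1-RC/RC library, replicate 1, had 20.4 CPM of Ihh and 14.9 CPM of Gli1. The parts of sex and genotype in these values are told apart only through these libraries, since no digenic library of P3 was male. Adrenal transcripts were present in 1 of 3 digenic libraries of P3, replicate 3, which had less Gli1 than the other digenic libraries. Without the adrenal libraries the log2 fold change of Ihh over Pkhd1-/- was 1.06 (adjusted p = 0.0512) and that of Hhip 1.21 (adjusted p = 0.194). Leaving out Pkhd1-/- replicate 1 alone also ended the calls over Pkhd1-/- of Ihh (0.96, adjusted p = 0.0651) and Gli1 (0.92, adjusted p = 0.0542).

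At P12 Gli1 was not called in digenic kidneys, and the digenic effect was not shown to differ from that at P3 (difference of -0.62 ± 0.33 on the log2 scale, adjusted p = 0.39). It had 6.43, 12.4 and 10.3 CPM in digenic, 10.9, 7.98 and 13.9 in Pkd1-RC/RC, 8.08, 8.65 and 7.46 in Pkhd1-/- and 10.3, 6.65 and 8.02 CPM in WT libraries, all overlapping, with a log2 fold change of digenic over WT of 0.22 ± 0.24 (adjusted p = 0.569). Among the digenic libraries of P12 the order of Gli1 was the reverse of that of Ihh. Replicate 1, with most Ihh (55.5 CPM), had least Gli1 (6.43 CPM), and replicate 2, with least Ihh (25.9 CPM), had most Gli1 (12.4 CPM). The sums of stroma markers followed the order of Gli1, as given above for Smo. Adrenal transcripts were present in replicates 2 and 3 and not in replicate 1, and their part in the level of Gli1 was not tested.

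**Figure D4:**
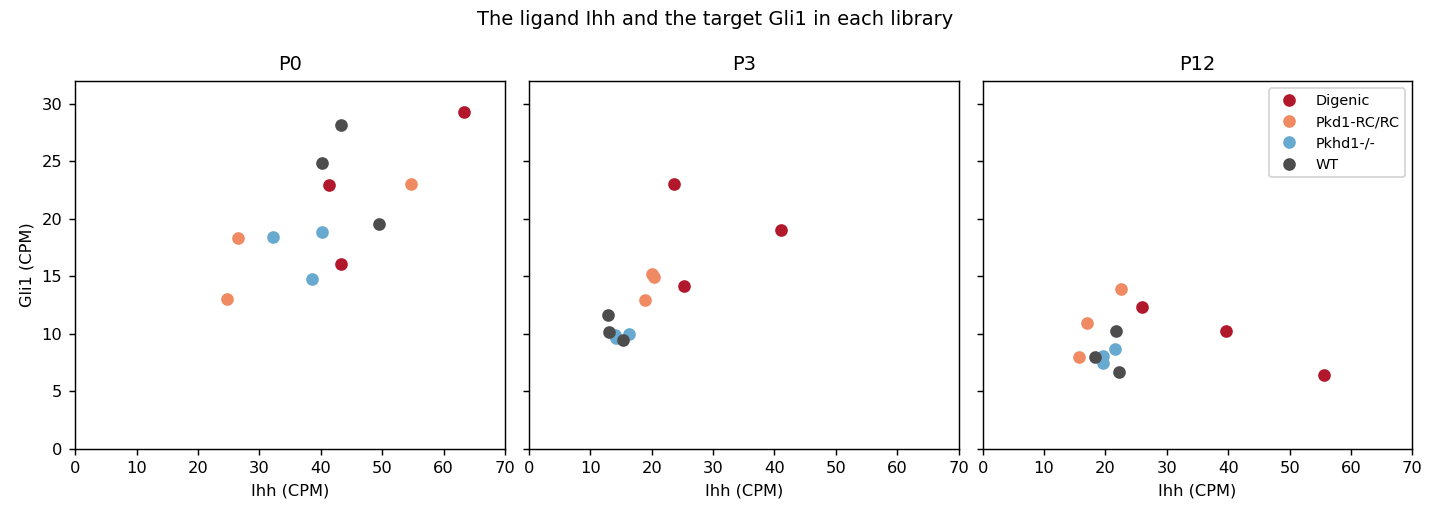
Gli1 (CPM) against Ihh (CPM) in each library at P0, P3 and P12, coloured by genotype. Digenic libraries lie to the upper right of WT at P3, and at P12 they lie to the right of WT at about the same height.

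Gli2 (chr1:118834132-119053619, reverse strand) and Gli3 (chr13:15463235-15730026, forward strand), the factors that exist before a signal arrives, fell with age in WT kidneys and were not called between genotypes at any age. In digenic libraries of P12 Gli3 had 9.10, 14.8 and 11.1 CPM, against 10.1, 7.67 and 7.78 CPM in WT libraries, overlapping, with a log2 fold change of 0.45 ± 0.17 (adjusted p = 0.0788). Without Digenic replicate 1, or WT replicate 1, it passed; without the first it was 0.60 (adjusted p = 0.0237). The digenic libraries then left, replicates 2 and 3, both held adrenal transcripts, with sums of adrenal cortex markers of 128 and 161 CPM. Digenic replicate 1 had 12.8 CPM, and the part of adrenal tissue in the Gli2 and Gli3 values was not tested. Gli2 had 3.88, 10.4 and 9.26 CPM in digenic and 7.35, 6.00 and 6.15 CPM in WT libraries of P12. Digenic replicate 1 was the lowest of the 6 and the other digenic libraries the highest, so that the log2 fold change was 0.27 ± 0.29 (adjusted p = 0.546). At P3 the log2 fold change of digenic over WT was -0.16 ± 0.13 for Gli2 and -0.16 ± 0.12 for Gli3.

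In the single mutants none of the 9 members passed at any age. In the comparison of Pkd1-RC/RC against WT 0.0166% of all genes were called at P0, 0.0443% at P3 and 0.267% at P12, and in Pkhd1-/- against WT 0.0111%, 0.0166% and 0.0333%. At an unadjusted p under 0.05 there were 0, 2 and 0 members in Pkd1-RC/RC over the 3 ages in turn and 0, 0 and 0 in Pkhd1-/-, and DESeq2 called none. The 2 of Pkd1-RC/RC at P3 were Ihh, with a log2 fold change of 0.52 ± 0.18 (adjusted p = 0.873), and Gli1, with 0.45 ± 0.16 (adjusted p = 0.873). Both had all 3 Pkd1-RC/RC libraries above all WT libraries. The values of Pkhd1-/- at P3 were 0.11 ± 0.18 for Ihh and -0.09 ± 0.16 for Gli1, with overlap.

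Against Pkd1-RC/RC, digenic kidneys had no member called at P0 (0.0388% of all genes called) or P3 (0.46% called), with 0 and 2 members at an unadjusted p under 0.05, and DESeq2 called 0 at P0 and 1 at P3, Ihh. At P12 they had Ihh up and Sufu down (19.5% called). Against Pkhd1-/- no member was called at P0 (0.244% called; 2 below 0.05 before adjustment, 0 with DESeq2), 3 rose at P3, Ihh by 1.0 ± 0.18 (adjusted p = 0.00973) and Gli1 and Hhip as given (3.49% called), and at P12 Ihh rose and Sufu fell (28.2% called). The interaction had no member called at P0 (0.00554% of all genes) or P3 and 1, Ihh, at P12 (8.57%). At P3 no gene of 18043 was called for the interaction (0%), while 1457 had an unadjusted p under 0.05 and DESeq2 called 211. Of the members 1 at P0 and 0 at P3 had an unadjusted p under 0.05 for it, and DESeq2 called 0 and 0. These comparisons share libraries: the digenic libraries enter all of them.

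As a description, the genes whose deviation from WT of the same age followed that of Ihh most closely over the 27 mutant libraries were Tmem189 (r = 0.912), Lyn (r = 0.911), Icam1 (r = 0.899), Mafk (r = 0.892) and Ttc39b (r = 0.879). Lyn encodes a kinase of blood cells and Icam1 an adhesion molecule that is induced in inflammation. For Gli1 they were Nyap1 (r = 0.824), Xab2 (r = 0.816), Ell (r = 0.807), Crtc2 (r = 0.807) and Map2k7 (r = 0.792). The libraries share genotype groups, depth scaling and, in part, adrenal transcripts. The members were left out of this ranking beforehand, so that neither list could hold one. On the same measure the highest r of Ihh with another member was 0.604, with Gli1. That of Gli1 was 0.663, with Ptch1.

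A further list of 37 genes covered the release and reception of ligand, the regulation of Smo and Gli proteins, and common targets; 36 of them were in the table, all but Foxf2. In digenic against WT kidneys none was called at P0 or P3, with 7 and 4 below 0.05 before adjustment, and DESeq2 called 1 and 0; at P12 3 rose and 4 fell, against 23% of all genes called. Their median log2 fold change at P12 was -0.02. Of the genes that rose, Scube3, a secreted protein of the family that helps hedgehog ligands leave the cell, had 152, 194 and 175 CPM in digenic and 80.2, 75.2 and 70.3 CPM in WT libraries of P12, a log2 fold change of 1.2 ± 0.12 (adjusted p = 6.75e-05). All digenic libraries stood at more than the highest WT library, and Pkd1-RC/RC had 78.5, 83.7 and 108 CPM. In WT kidneys Scube3 was lower at P12 than at P3, with a log2 fold change of -1.65 ± 0.17 (adjusted p = 8.87e-09). Its interaction at P12 was 0.98 ± 0.17 (adjusted p = 0.00894).

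Scube2, of the same family, had 6.29, 5.73 and 6.02 CPM in digenic and 4.48, 4.10 and 4.62 CPM in WT libraries of P12, a log2 fold change of 0.45 ± 0.13 (adjusted p = 0.0279). Gas1, a co-receptor for the ligands, had 85.4, 98.6 and 110.0 CPM in digenic and 67.2, 72.9 and 79.7 CPM in WT libraries, with no overlap and a log2 fold change of 0.42 ± 0.10 (adjusted p = 0.0104), and its interaction was 0.62 ± 0.14 (adjusted p = 0.0211). The other co-receptors did not pass at P12: Boc had a log2 fold change of 0.04 ± 0.12 (adjusted p = 0.827) and Cdon of 0.10 ± 0.10 (adjusted p = 0.5). The third ligand, Dhh, had a log2 fold change of 0.08 ± 0.17 at P12 (adjusted p = 0.793).

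In digenic kidneys of P12 the 4 genes that fell were Evc, Dzip1, Btrc and Spop. Evc, a ciliary partner of Smo, had 60.1, 59.3 and 63.0 CPM in digenic and 79.9, 84.9 and 85.8 CPM in WT libraries, a log2 fold change of -0.46 ± 0.07 (adjusted p = 0.000926). Dzip1, a protein of the ciliary base, had 10.3, 14.1 and 12.2 CPM in digenic and 21.2, 16.9 and 20.8 CPM in WT libraries, a log2 fold change of -0.69 ± 0.12 (adjusted p = 0.00146). Neither overlapped WT, and both had been higher in WT at P12 than at P0, Evc by 1.69 ± 0.15 (adjusted p = 8.46e-10) and Dzip1 by 0.42 ± 0.15 (adjusted p = 0.0205) on the log2 scale. Btrc and Spop, which target Gli proteins for processing or degradation, fell by less, with log2 fold changes of -0.22 ± 0.07 (adjusted p = 0.0314) and -0.18 ± 0.06 (adjusted p = 0.0485). In WT from P0 to P12, 9 of the 36 genes of the list rose and 12 fell, while 49.8% of all tested genes were called. Evc had the largest rise and Mycn, which fell by 1.55 ± 0.17 (adjusted p = 1.98e-08), the largest fall.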

How the data were processed

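RNA of whole kidneys was sequenced in 36 libraries, 3 for each of 4 genotypes at 3 ages. Groups came from the labels. Per the submitters' processing notes and the series' design text, the authors ran the MAP-RSeq 2.1.0 pipeline (TopHat2 with Bowtie, mm10) and counted reads by featureCounts. No source used here gives the strandedness. The deposited file holds raw counts per gene, per the file headers, for 18049 genes, and these counts were the input of every test. The 36 deposited normalized columns and the authors' comparisons were not used.

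Counts were tested with edgeR 4.0.16 in R 4.3.3: filterByExpr, TMM scaling and a robust quasi-likelihood fit of the 12 libraries of an age, or of all 36 for comparisons between ages. Calls were made where the adjusted p (Benjamini-Hochberg, across every gene tested) was below 0.05. CPM levels use library totals times TMM factors over all 36 libraries, and CPM per kilobase divides by the gene length in the table. Log2 CPM used for likeness had a prior count of 2. The script was tested on simulated data. At this depth the spread between libraries, not counting error, limits the precision. Alternatives were DESeq2 1.42.0, RLE size factors, no filter, 1 fit of all libraries, the replicate number as a block, sex in the fit and leaving out each library; leaving out the libraries with at least 5 CPM of Cyp11a1 was added after seeing the data. The members, lists and tests were chosen with earlier results of these data known. The text names all 9 members, genes of the further list called in digenic against WT kidneys, Boc, Cdon, Gas1 and Dhh, and the 5 genes most like Ihh and Gli1; 1 further gene of the rule is not reported here.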

Additional observations from a re-analysis of the deposited data

Results flagged for a closer look

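Each of 2 results differed between groups by a test of the difference itself. The effect of both mutations on Ihh at P12 exceeded the sum of the single-mutant effects by 1.16 on the log2 scale. The digenic effect on Shh differed between P12 and P0 by 1.62 on the log2 scale. Both calls lie near the threshold and were lost when most single libraries were left out, as given with the results.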

How the results depend on the processing

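The rise of Ihh in digenic over WT kidneys kept its call at P12 under every alternative with more than 1 digenic library and at P3 under all but sex in the fit. Leaving out the adrenal libraries leaves 1 digenic library at P12, replicate 1, which is then assumed to vary like the other groups, so that no value of that setting for digenic kidneys of P12 bears on stability. Other counts of called members moved as follows. In digenic against WT kidneys, 1 fit of all 36 libraries called 1 member at P0 and 1 at P3, sex in the fit called 0 at P3, and DESeq2 and leaving out the adrenal libraries called 2 each at P12. Against Pkd1-RC/RC, DESeq2 called 1 at P3, and at P12 1 fit of all libraries, no filter, the replicate block and leaving out the adrenal libraries called 1 each. Against Pkhd1-/-, sex in the fit called 0 and leaving out the adrenal libraries called 1 at P3; at P12 1 fit of all libraries and sex in the fit called 1 each and DESeq2 called 4. For the interaction at P12 the replicate block and sex in the fit called 0 and leaving out the adrenal libraries called 2. For the change of the digenic effect between P0 and P12 the block called 0 and leaving out the adrenal libraries called 2. RLE size factors moved no count of members.

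When single libraries were left out, counts ran from 1 to 2 for digenic against WT at P3, from 0 to 3 against Pkhd1-/- at P3, from 1 to 3 against WT, from 1 to 2 against Pkd1-RC/RC and from 1 to 5 against Pkhd1-/- at P12, and from 0 to 1 for the interaction at P12 and for the change between P0 and P12. Smo in digenic over WT kidneys at P12 ran from -0.154 to 0.0412. The change of the digenic effect on Gli2 between P0 and P12 was -0.02, ran from -0.27 to 0.31, and was 0.0167 by DESeq2 and 0.0169 with RLE size factors; it passed in no setting but that without the adrenal libraries, where the 1 digenic library of P12 is the lowest of its group for Gli2. The cause of these changes was not tested.

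Libraries with the same replicate number did not deviate together (median correlation of -0.10, -0.10 and 0.00 at P0, P3 and P12), so the number is not a pairing. With the replicate block 5 named member values lost their call and 1 gained it. Counts for the further list of genes moved by more than 1.5 times in 1 fit of all libraries in 6 comparisons and by DESeq2 in 4.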
